A study of Mus musculus with 20 samples.

Results

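Metallothioneins are small cysteine-rich proteins that bind zinc and copper, and their genes Mt1, Mt2 and Mt3 were followed through the cells of the injured mouse spinal cord. The members were taken by gene symbol, which gave 3 of the 16003 genes in the count table. Mt4, a further gene of the family, had 0 rows in that table. For each gene the raw unique molecular identifiers (UMIs, one per captured RNA molecule) were summed over the cells of a cluster within a library and given as counts per 1e6 UMIs of those same cells (CPM).

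The study asked how microglia shape repair after spinal cord injury (SCI), and fed mice PLX5622, an inhibitor of the receptor Csf1r on which microglia depend, to deplete them. Female C57BL/6J mice, 8 to 10 weeks old, ate chow with PLX5622 or vehicle chow from 2 weeks before surgery to the end, and received a T9 contusion SCI or a sham laminectomy. Single-cell libraries were made from 1 cm of dissociated cord at 7 and 28 days post-injury (dpi) and from sham mice, whose label names both days. The labels give the PLX5622 dose as 1200 ppm, but the study's methods also give a lower ppm, so the dose is in doubt. PLX5622 is not confined to microglia, since other macrophages carry Csf1r too, and dissociation decides which cells reach a library.

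Each of the 6 conditions was 1 library pooled from 3 to 4 mice, so no replicate spread exists and no test between conditions was possible. The vehicle libraries held 1795 (sham), 7439 (7 dpi) and 9846 cells (28 dpi), and the PLX5622 libraries held 492, 504 and 940 cells. Totals ran from 2606149 to 35694246 UMIs, with medians of 2268 to 5127 UMIs per cell. Between 4 and 35 barcodes of a library also occurred in another library. All intervals are 95% intervals of counting error alone, exact Poisson for CPM, exact conditional binomial for ratios and Clopper-Pearson for shares.

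In mammals Mt1 and Mt2 are made by many tissues and are switched on by zinc, glucocorticoids, oxidants and cytokines of the interleukin-6 family. Zinc acts through the transcription factor Mtf1, which binds short metal response elements in their promoters. Mt3, also called growth inhibitory factor, is mostly a protein of the nervous system and is little induced by metals. In the central nervous system astrocytes are the best-known source of Mt1 and Mt2, which are classical markers of the glial response to injury.

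The 3 genes lie on the plus strand of chromosome 8 in the GRCm38 build. Mt3 spans chr8:94152607-94154146, Mt2 chr8:94172664-94173568 and Mt1 chr8:94179082-94180327 (GENCODE M21), each with 3 exons. Between Mt3 and Mt2 lie 18517 bases, and between Mt2 and Mt1 5513 bases, with 0 other genes wholly inside either gap. The coding sequences are shown because they carry the feature that names the family, the cysteines that hold the metal, and because they tell how well reads of the members can be told apart. Capitals mark the cysteine codons, 20 of 61 in Mt1, 20 of 61 in Mt2 and 20 of 68 in Mt3.
Mt1 coding sequence: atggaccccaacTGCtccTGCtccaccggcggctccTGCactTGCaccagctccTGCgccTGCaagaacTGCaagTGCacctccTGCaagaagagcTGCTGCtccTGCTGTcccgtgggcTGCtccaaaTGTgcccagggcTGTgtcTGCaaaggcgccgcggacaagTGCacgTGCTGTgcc
Mt2 coding sequence: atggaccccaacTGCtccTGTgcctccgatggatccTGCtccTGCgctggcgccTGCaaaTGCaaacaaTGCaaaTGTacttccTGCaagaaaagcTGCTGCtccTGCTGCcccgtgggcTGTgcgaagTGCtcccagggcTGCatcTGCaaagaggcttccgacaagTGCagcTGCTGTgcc
Mt3 coding sequence: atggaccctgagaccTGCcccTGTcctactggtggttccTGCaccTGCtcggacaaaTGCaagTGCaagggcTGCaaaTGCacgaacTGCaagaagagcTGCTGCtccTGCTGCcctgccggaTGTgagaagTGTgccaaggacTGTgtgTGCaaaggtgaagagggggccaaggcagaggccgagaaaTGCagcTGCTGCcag
Over the 61 aligned codons Mt1 and Mt2 shared 79.23% of their bases, Mt1 and Mt3 73.22%, and Mt2 and Mt3 74.86%. All 20 cysteine codons aligned in each pair, and Mt3 had 7 codons that the others lack. In the last 300 bases of the transcripts, where the libraries were read, the longest run shared by Mt1 and Mt2 was 17 bases and by Mt1 and Mt3 27 bases, so a longer read over that part differs between these genes.

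The promoters are shown because the members' levels are compared below between cell types and conditions. The 250 bases before each start site come from RefSeq (GRCm38.p6), which had an entry for 3 of the 3 members and whose start sites lie near those of GENCODE. They were searched on both strands for the core of the metal response element, TGCACNC or TGCGCNC, and capitals mark the matches.
Mt1 promoter, chr8:94178839-94179088: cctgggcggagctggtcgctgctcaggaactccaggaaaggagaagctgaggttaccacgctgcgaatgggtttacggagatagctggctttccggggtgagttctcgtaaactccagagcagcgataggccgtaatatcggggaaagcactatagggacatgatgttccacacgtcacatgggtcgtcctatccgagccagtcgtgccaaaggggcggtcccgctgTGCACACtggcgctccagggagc
Mt2 promoter, chr8:94172368-94172617: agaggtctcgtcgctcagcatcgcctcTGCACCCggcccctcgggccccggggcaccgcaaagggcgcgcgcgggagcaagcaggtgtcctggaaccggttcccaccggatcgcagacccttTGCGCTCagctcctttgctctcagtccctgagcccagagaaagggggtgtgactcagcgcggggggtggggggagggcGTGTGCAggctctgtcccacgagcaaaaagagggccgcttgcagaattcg
Mt3 promoter, chr8:94152357-94152606: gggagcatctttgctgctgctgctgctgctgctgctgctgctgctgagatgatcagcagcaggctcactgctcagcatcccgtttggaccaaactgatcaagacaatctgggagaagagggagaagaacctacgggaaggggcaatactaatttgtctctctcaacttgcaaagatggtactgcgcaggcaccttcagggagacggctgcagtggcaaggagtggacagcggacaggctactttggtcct
Mt1 held 1 match, which began 23 bases before the start site. Mt2 held 3 matches, beginning 223, 128 and 50 bases before it, the last of them on the reverse strand. Mt3 held 0 matches in this window. Of 32851 mouse promoters cut the same way, 21.41% held at least 1 match and 1.263% at least 3. No window held TATAAA or TATAAG, letters of the TATA box, near its end. Another annotated start site would move a window, and bases past the end of each window were not searched. The counts of matches thus describe these windows and not the whole promoters of the members. A match is a description of the letters and not a binding site.

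The authors' clustering split the 21016 cells into 14 clusters, and 67 of 76 marker genes found in the table were highest in the cluster they name. Names follow the most markers at their highest level, and stand for cells like that type. Microglia formed 7018 cells, monocyte-derived macrophages (MDMs) 6791, astrocytes 974, ependymal cells 707 and endothelial cells 1075. The oligodendrocyte lineage cluster was led by genes of precursor cells. The leptomeningeal cluster rested on 2 of 6 markers at their highest level, and its name is uncertain. Units of a cluster and library with under 10 cells or 20000 UMIs were set aside, 6 in all. Microglia made up 37.55%, 28.96% and 40.36% of the vehicle libraries (sham, 7 and 28 dpi) and 5.894%, 12.1% and 13.4% of the PLX5622 libraries.

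Mt1 and Mt2 were highest in ependymal cells, the ciliated lining of the central canal, and in astrocytes. For Mt1 the ependymal median over libraries was 7123 CPM (6501 to 8265) and the astrocyte median 6474 CPM (4620 to 16778). These ranges overlapped, and ependymal cells were above astrocytes in 4 of 6 libraries. Leptomeningeal cells followed with a median of 1763 CPM and endothelial cells with 1027 CPM (805.4 to 1249). The leptomeningeal range (1118 to 2044 CPM) lay wholly below the astrocytes and overlapped that of endothelial cells, which lay wholly above pericytes or fibroblasts. Pericytes or fibroblasts (586.6 CPM), MDMs (559.6 CPM), proliferating cells (546.2 CPM) and microglia (362.4 CPM) had ranges that overlapped from each to the next. The oligodendrocyte lineage (353.9 CPM, 180.7 to 1025), monocytes (328.6 CPM, 115.5 to 451.7) and erythroid cells (246.9 CPM, 92.03 to 596.1) overlapped in the same way. The lowest Mt1 medians were those of neutrophils (114.4 CPM), B cells (81.59 CPM) and T cells (78.52 CPM).

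**Figure D1:**
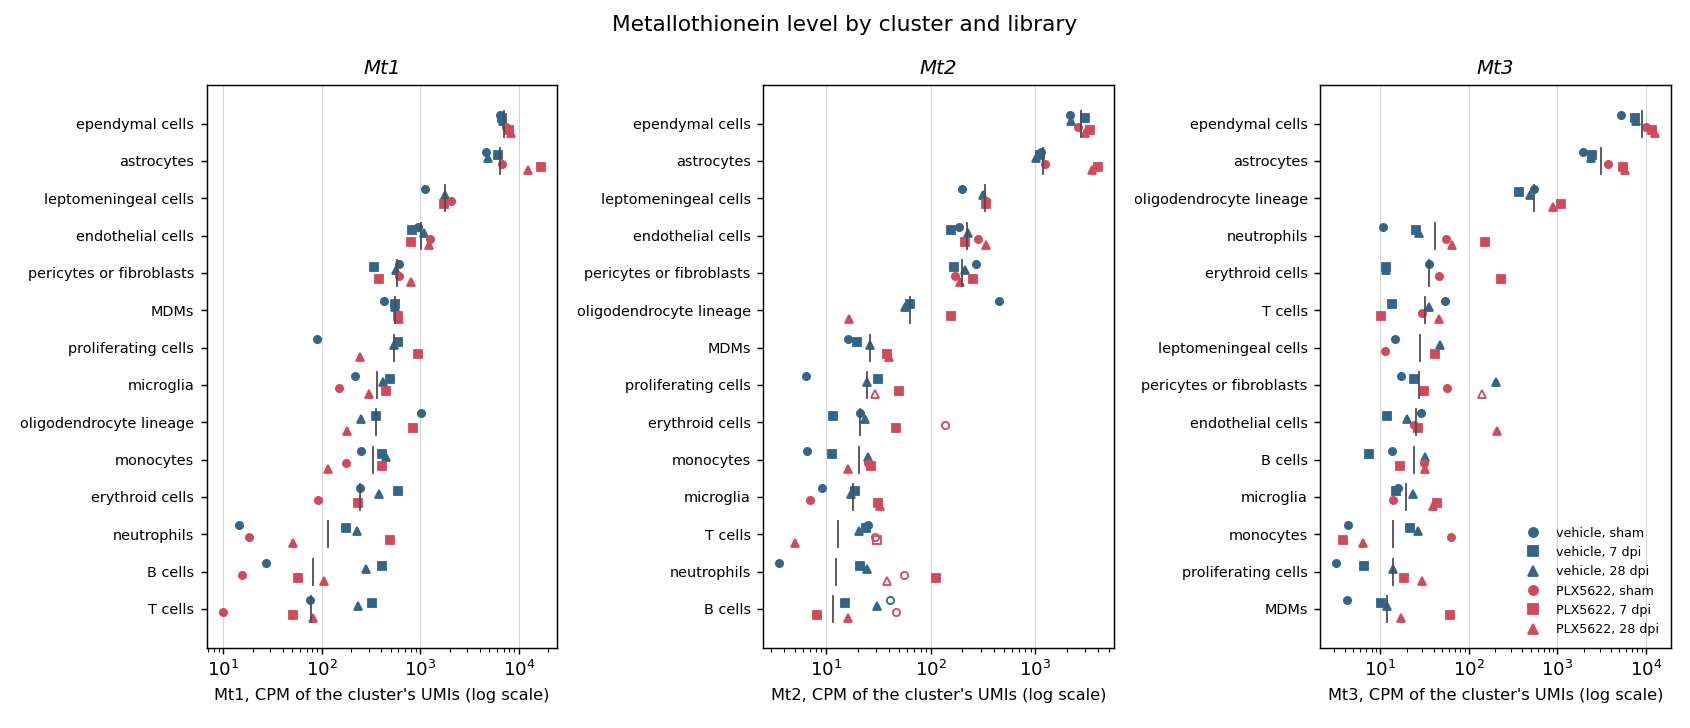
Level of Mt1, Mt2 and Mt3 in CPM on a log axis for each cluster, with 1 symbol per library. Open symbols are libraries with 0 UMIs, drawn at a floor of 3 counts, the vertical line is the median, and 6 thin units are left out. Ependymal cells and astrocytes stand to the right in all 3 panels, and Mt3 has medians of at most 41.31 CPM outside them and the oligodendrocyte lineage.

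Mt2 kept the same order at the top, with lower levels in UMIs, which count 1 end of each molecule and need no correction for length. The ependymal median was 2745 CPM (2163 to 3329) and the astrocyte median 1187 CPM (1009 to 3942), and these ranges overlapped. Endothelial cells had a median of 221.4 CPM and pericytes or fibroblasts 200.5 CPM, and their ranges overlapped. In microglia the median was 18.19 CPM and in MDMs 26.47 CPM.

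Mt3 was the most restricted of the members. Ependymal cells had a median of 8929 CPM (5272 to 12491) and were above astrocytes, with a median of 3076 CPM (1967 to 5720), in 6 of 6 libraries. The oligodendrocyte lineage came next with 551.1 CPM (372.2 to 1089), and its range met neither the astrocytes above nor the cluster below. All 11 other clusters had medians of 41.31 CPM or less. Mt3 was among the 10 leading genes of the ependymal cluster, and the clustering used the same cells, so its high level there is a description.

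Mt3 in vehicle microglia was low, near the level of cells that should lack it. After each cell was thinned to 1000 UMIs, 1.46% of 548 microglia from vehicle sham cords held an Mt3 UMI (median depth of all 674 cells 3178 UMIs), and 2.016% of 1984 at 7 dpi. B cells, which are not known to make Mt3, held one in 1.37% of 146 cells at 7 dpi (median depth 2209 UMIs) and 5% of 160 cells at 28 dpi (932 UMIs) with vehicle. In vehicle sham cords 0 of 23 B cells held one. There the mean thinned Mt3 count per cell was 0.04918 in 61 T cells, 0.05172 in 58 neutrophils and 0.02632 in 38 erythroid cells. In the microglia of that library it was 0.02007. At 7 dpi with vehicle the mean was 0.02016 in microglia, above B cells (0.0137), T cells (0.008264), neutrophils (0.016) and erythroid cells (0). At 28 dpi it was 0.02347 in microglia, below B cells (0.05), T cells (0.0332) and neutrophils (0.04651) and above erythroid cells (0). In ependymal cells the thinned share was 93.33% to 100% over the 6 libraries, and in astrocytes 64.71% to 94.64%. Without thinning, Mt3 in vehicle sham cords was found in 96.05% of ependymal cells, 75.48% of astrocytes and 3.858% of microglia.

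Ependymal cells were a small share of the cells and the main source of Mt3. In vehicle sham cords they were 4.234% of cells and held 55.59% of Mt3 UMIs, while astrocytes were 17.27% of cells and held 41.02%. At 7 dpi with vehicle, ependymal cells were 2.326% of cells and held 83.9% of Mt3 UMIs. The Mt1 UMIs of that library came most from MDMs, which were 40.64% of cells and held 44.98% of Mt1, against 18.96% for ependymal cells and 4.611% for astrocytes. With PLX5622 at 7 dpi, MDMs held 12.11% of Mt1 UMIs and ependymal cells 52.7%. The leading source of Mt1 thus differed between these libraries together with their cell makeup.

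Mt2 was a larger share of Mt1 plus Mt2 in ependymal cells, astrocytes and endothelial cells than in microglia and MDMs. Over all libraries Mt2 was 27.15% of the UMIs of Mt1 plus Mt2 in ependymal cells (26.66 to 27.64), 18.11% in astrocytes (17.55 to 18.69), 17.73% in endothelial cells and 28.73% in pericytes or fibroblasts. In microglia it was 4.005% (3.581 to 4.465), in MDMs 4.066% (3.81 to 4.334), in monocytes 3.826% and in proliferating cells 4.85%. In the oligodendrocyte lineage it was 18.36% (15.1 to 21.99) and in neutrophils 10.85% (7.003 to 15.83). By library the share ran from 3.422% to 9.722% in microglia and MDMs and from 14.15% to 30.68% in ependymal, astrocyte, endothelial and leptomeningeal cells, and these ranges did not meet. Other clusters crossed them, with 8.333% in the oligodendrocyte lineage and 12.2% in monocytes of the PLX5622 28 dpi library, on 2 and 5 Mt2 UMIs. In microglia it was 6.522% and 9.722% and in MDMs 6.108% and 6.079% in the injured PLX5622 libraries, beside 3.422% to 4.516% in the vehicle libraries of both clusters. The microglial interval at 7 dpi (3.415 to 11.11) spanned the vehicle values. At least 3 astrocyte-list UMIs were held by 14.75% and 3.968% of these PLX5622 microglia against 0.4178% and 0.7046% with vehicle at 7 and 28 dpi. In MDMs they were held by 5% and 2.484% of cells against 0.43% and 1.087%. A fixed limit is met more often in deeper cells. Median depths were 6448 and 2896 UMIs in these microglia against 2902 and 1686 with vehicle. In MDMs they were 15945 and 6843 against 5777 and 3875. In CPM the list stood at 229.6 and 167.5 in these microglia against 90.2 and 132.1 with vehicle. In MDMs it stood at 47.53 and 53.62 CPM against 35.17 and 63.4 CPM, so lower with PLX5622 at 28 dpi. The part of astrocyte RNA in the Mt2 share was not tested. In ependymal cells the share was 30.68% and 29.31% in the 7 dpi libraries of vehicle and PLX5622, and 24.19% to 26.31% in the other 4. In astrocytes it ran from 15.12% (vehicle, 7 dpi) to 22.05% (PLX5622, 28 dpi) and showed no common order of the stages in the 2 diets.

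**Figure D2:**
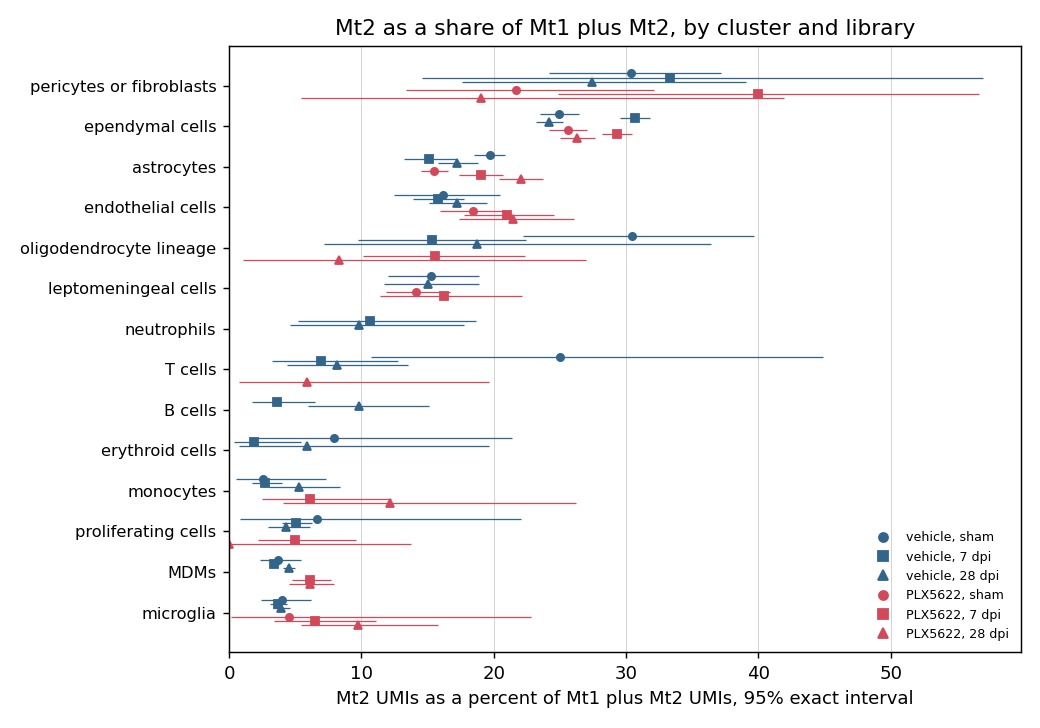
Mt2 UMIs as a percentage of Mt1 plus Mt2 UMIs for each cluster (rows) and library (symbols), with exact binomial 95% intervals, for units with at least 20 such UMIs. Ependymal cells, astrocytes, endothelial cells and pericytes or fibroblasts sit above microglia, MDMs and monocytes.

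Astrocytes, the glia that react to injury around the lesion, differed more between libraries than ependymal cells did for Mt1 and Mt2. Mt1 stood at 4620 CPM in vehicle sham cords, 6171 CPM at 7 dpi and 4842 CPM at 28 dpi, and with PLX5622 at 6777, 16778 and 12271 CPM. The injured PLX5622 libraries were thus above all others, and the vehicle libraries lay close together. Mt2 stood at 1132, 1099 and 1009 CPM with vehicle and at 1242, 3942 and 3470 CPM with PLX5622. Mt3 stood at 1967, 2471 and 2369 CPM with vehicle and at 3681, 5570 and 5720 CPM with PLX5622, so that for Mt3 the PLX5622 sham library too was above every vehicle library.

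Between diets, the log2 ratio of PLX5622 over vehicle in all astrocytes was 1.44 (1.33 to 1.55) for Mt1 at 7 dpi, 1.84 for Mt2 and 1.17 for Mt3. At 28 dpi the ratios were 1.34 (1.25 to 1.43), 1.78 and 1.27. A gene was called when its CPM differed at least 2-fold and the libraries held 100 or more of its UMIs in sum, and 3 of 3 members were called higher at each time. The background was 16.0% of the 363 genes with enough UMIs at 7 dpi and 17.3% of 771 at 28 dpi. In sham cords the ratios were 0.55, 0.13 and 0.90, and 0 of 3 members were called against a background of 0.701%. For Mt3 in sham cords the interval was 0.81 to 1.00, just short of the call.

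Across injury, PLX5622 astrocytes at 7 dpi over sham had log2 ratios of 1.31 (1.23 to 1.39) for Mt1, 1.67 (1.49 to 1.84) for Mt2 and 0.60 for Mt3, with 2 of 3 called against a background of 11.7%. At 28 dpi the ratios were 0.86, 1.48 and 0.64, with 1 of 3 called against 4.87%. With vehicle, the ratios over sham were 0.42, -0.04 and 0.33 at 7 dpi and 0.07, -0.17 and 0.27 at 28 dpi. In either vehicle comparison 0 of 3 members were called, where the backgrounds were 15.8% and 13.6%. The median of all genes was -0.44 and -0.35 there, and relative to it Mt1 was 0.85 and 0.42 higher, Mt2 0.39 and 0.19, and Mt3 0.76 and 0.62. Ratios that share a sham or a time point share that library and are not independent.

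RNA of myeloid cells in this cluster also differed between the libraries. The summed level of 12 myeloid genes (among them C1qa, Tyrobp and Ctss) in the astrocyte cluster was 2292, 24593 and 23622 CPM in the vehicle libraries and 209.9, 2561 and 1201 CPM with PLX5622. The list thus filled a larger part of the total in the injured vehicle libraries than in any other, with 0 of 12 genes at 0 there. At least 3 UMIs of the list were held by 66.67% of vehicle astrocytes at 7 dpi and 54.69% at 28 dpi, but by 17.95% and 7.477% with PLX5622. The 10 genes of an astrocyte list (such as Aqp4 and Slc1a2) summed to 28625, 20843 and 19725 CPM with vehicle and 30874, 32556 and 40258 CPM with PLX5622.

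In the astrocytes with under 3 myeloid UMIs, the injured vehicle libraries had higher levels of all 3 members than sham. These were 283, 23 and 111 cells with vehicle and 196, 32 and 99 cells with PLX5622. Mt1 stood at 4672, 12496 and 9564 CPM with vehicle and at 6710, 18388 and 11858 CPM with PLX5622. Mt2 stood at 1127, 2275 and 1920 CPM with vehicle and at 1217, 4242 and 3064 CPM with PLX5622. Mt3 stood at 2004, 5952 and 5130 CPM with vehicle and at 3673, 5991 and 5650 CPM with PLX5622. In these cells both injured libraries were thus above the sham library of the same diet for each member. After injury the diets lay closer together than in all astrocytes. Against the sham libraries, the diets lay closer at both times for Mt3 only, and further apart for Mt2. The astrocytes with 3 or more myeloid UMIs of the vehicle 7 dpi library held Mt1 at 4833 CPM. Their astrocyte list was 16049 CPM, against 43503 CPM in the cells kept. In the kept cells that list stood at 29331, 43503 and 40601 CPM with vehicle. With PLX5622 it stood at 30947, 34316 and 41384 CPM, so it too was higher after injury in both diets. The ratios over sham in the kept cells were not scaled by it.

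The log2 ratios over sham in the kept vehicle astrocytes were 1.42 (1.27 to 1.57) for Mt1, 1.01 (0.65 to 1.36) for Mt2 and 1.57 (1.34 to 1.79) for Mt3 at 7 dpi, with 3 of 3 called against a background of 14.6%. At 28 dpi they were 1.03, 0.77 and 1.36, with 2 of 3 called against 7.55%. With PLX5622 they were 1.45, 1.80 and 0.71 at 7 dpi (2 of 3 called, background 8.27%) and 0.82, 1.33 and 0.62 at 28 dpi (1 of 3, background 4.26%). With these cells also thinned to 1000 UMIs, the vehicle ratios were 1.87, 1.01 and 1.88 at 7 dpi on 14 cells and 1.51, 0.63 and 1.83 at 28 dpi on 52 cells. The PLX5622 ratios were then 0.85, 1.34 and 0.67 at 7 dpi on 19 cells and 0.84, 1.60 and 0.85 at 28 dpi on 52 cells. All ratios over sham in the kept cells were thus above 0 with and without thinning. At 7 dpi Mt2 had the larger ratio with PLX5622 and Mt3 with vehicle both ways, whereas Mt1 had close ratios in the 2 diets without thinning and the larger one with vehicle after it.

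The diet ratios in the kept astrocytes were smaller than in all astrocytes. PLX5622 over vehicle gave 0.56 (0.40 to 0.72) for Mt1, 0.90 (0.53 to 1.28) for Mt2 and 0.01 (-0.23 to 0.25) for Mt3 at 7 dpi, with 0 of 3 called against a background of 10.1%. At 28 dpi the ratios were 0.31, 0.67 and 0.14, with 0 of 3 called against 2.34%. In sham cords they were 0.52, 0.11 and 0.87, with 0 of 3 called against 0.722%, much as in all astrocytes. The part of myeloid RNA in the difference that remained was not tested. A fixed limit of 3 UMIs also leaves out deeper cells, and in the vehicle 7 dpi library the kept cells had a median of 1130 UMIs against 2470 in those left out. With the kept cells also thinned to 1000 UMIs, the diet ratios were -0.26, 0.36 and -0.12 at 7 dpi and 0.09, 0.99 and 0.12 at 28 dpi, a choice made after seeing the data.

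**Figure D3:**
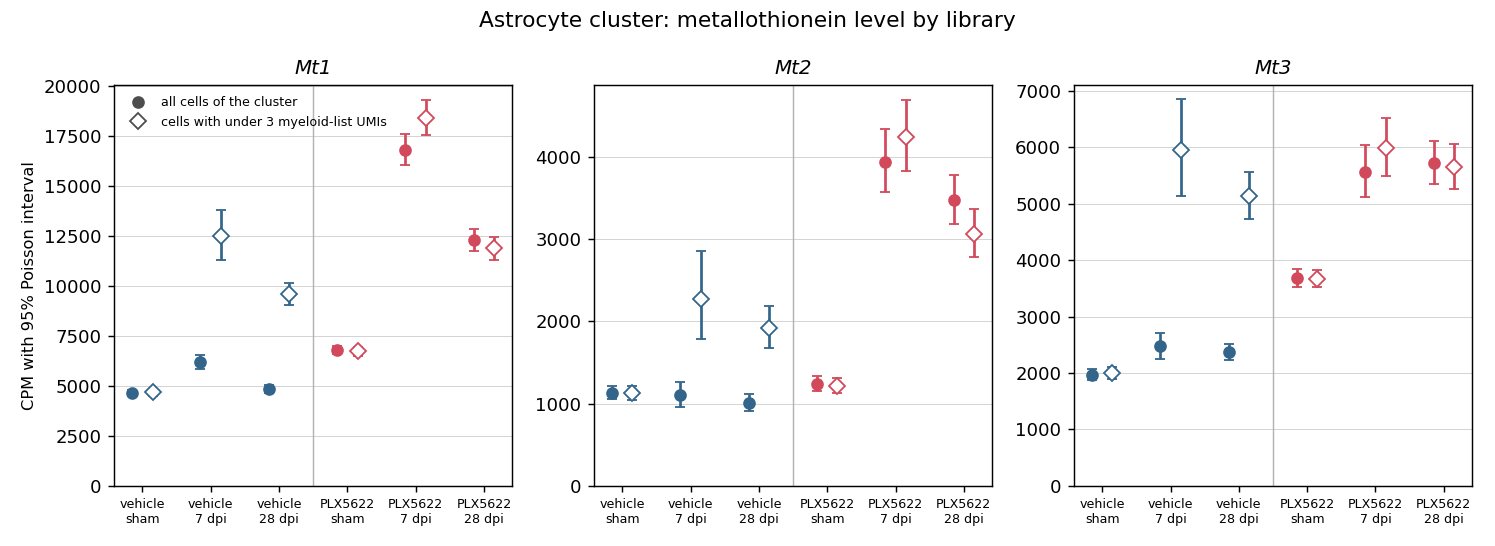
Level of each member in astrocytes in CPM for the 6 libraries, with exact Poisson 95% intervals, for all cells (filled) and for cells with under 3 myeloid-list UMIs (open). Mt1 in the vehicle 7 dpi library is 6171 CPM in all cells and 12496 CPM in the kept cells, and the PLX5622 libraries move less.

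Few deep cells carried much of the PLX5622 7 dpi astrocytes. Of the 39 astrocytes of the PLX5622 7 dpi library, the 5 deepest held 47.72% of all UMIs and 63.05% of Mt1 UMIs, and 1 cell held 696 of the 1762 Mt1 UMIs. Without the cell richest in Mt1 in each library, the ratio of PLX5622 7 dpi over sham was 1.00 in place of 1.31. When each cell was thinned to 1000 UMIs so that every cell counted alike, the mean Mt1 count per astrocyte was 3.933, 9.118 and 6.524 with vehicle (225, 51 and 147 cells) and 6.622, 10.88 and 12.16 with PLX5622 (127, 24 and 56 cells). On this scale the 7 dpi astrocytes of the 2 diets were close, with medians of 9 and 8.5 UMIs, and both were above sham, with medians of 3 and 5 UMIs. The log2 ratio of PLX5622 over vehicle for Mt1 was 0.25 at 7 dpi on this scale and 0.90 at 28 dpi. The mean Mt3 count was 1.618, 3.686 and 3.177 with vehicle and 3.465, 4.792 and 6.143 with PLX5622.

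**Figure D4:**
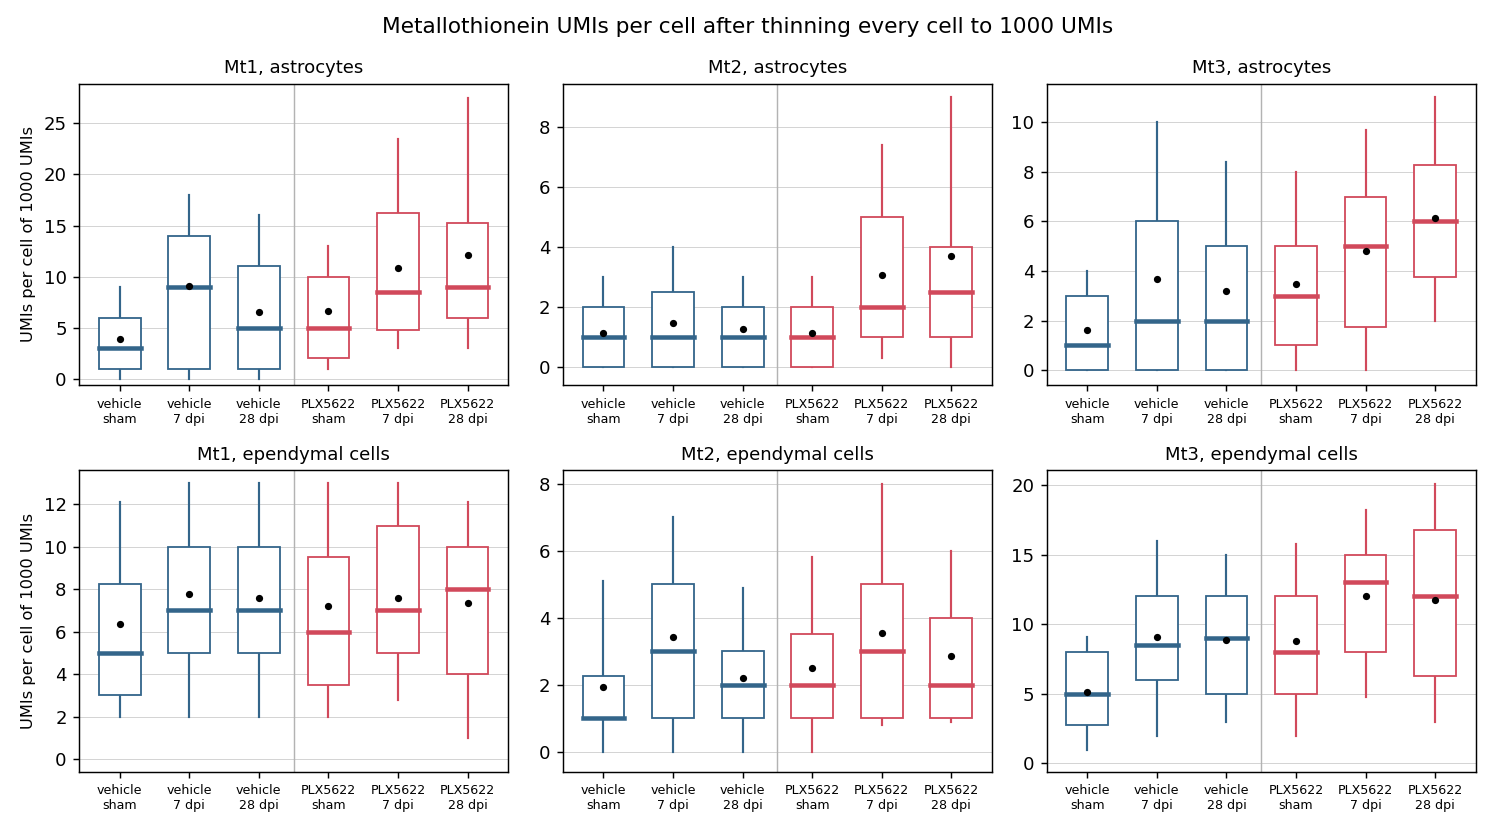
UMIs of Mt1, Mt2 and Mt3 per cell after thinning each astrocyte and ependymal cell to 1000 UMIs, by library. The box spans the 25th to 75th percentile, the line the 10th to 90th, the thick bar is the median and the dot the mean. Astrocytes of the injured libraries spread to higher Mt1 counts than sham astrocytes, whereas ependymal Mt1 medians stay between 5 and 8 UMIs.

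Within the injured vehicle libraries, astrocytes rich in Mt1 were rich in Mt3. Over the thinned cells the Pearson correlation of Mt1 and Mt3 was 0.84 in 51 cells at 7 dpi and 0.775 in 147 cells at 28 dpi, against 0.517 in 225 sham cells. With PLX5622 it was 0.567 in sham cords and 0.272 in 56 cells at 28 dpi. These are descriptions over cells that share a library and hold differing amounts of myeloid RNA.

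Ependymal cells held a steady Mt1 and a more variable Mt3. Mt1 stood at 6501, 6788 and 6872 CPM with vehicle (sham, 7 and 28 dpi) and at 7375, 8030 and 8265 CPM with PLX5622. Mt2 stood at 2163, 3004 and 2193 CPM with vehicle and at 2539, 3329 and 2951 CPM with PLX5622, with the 7 dpi library the highest of each diet. Mt3 stood at 5272, 7480 and 7782 CPM with vehicle and at 10076, 11756 and 12491 CPM with PLX5622. Each PLX5622 library was thus above all vehicle libraries for Mt3, and within each diet the injured libraries were above sham.

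The log2 ratio of PLX5622 over vehicle for ependymal Mt3 was 0.93 (0.86 to 1.01) in sham mice. At 7 dpi it was 0.65 (0.60 to 0.71), and at 28 dpi 0.68 (0.63 to 0.74). It lay above 99.4%, 95.1% and 97.3% of the genes with enough UMIs in these comparisons. For Mt1 the ratios were 0.18, 0.24 and 0.27 and for Mt2 0.23, 0.15 and 0.43. Over sham, Mt3 had ratios of 0.50 and 0.56 with vehicle and 0.22 and 0.31 with PLX5622, and Mt2 at 7 dpi 0.47 with vehicle and 0.39 with PLX5622. Deep cells carried more of the PLX5622 libraries, where the 5 deepest ependymal cells held 41.4%, 32.32% and 31.22% of Mt3 UMIs against 21.84%, 10.12% and 7.8% with vehicle. Counted alike after thinning, Mt3 averaged 5.167, 9.063 and 8.872 UMIs per cell with vehicle and 8.814, 12.04 and 11.73 with PLX5622, the same order of diets at each stage.

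Myeloid RNA was found in ependymal cells too. At least 3 UMIs of the list were held by 7.895%, 66.47% and 57.09% of ependymal cells with vehicle and by 8.511%, 28.85% and 21.43% with PLX5622. In the cells under that limit Mt3 stood at 5457, 9262 and 9864 CPM with vehicle and at 9866, 12205 and 12440 CPM with PLX5622, which left every PLX5622 library above the vehicle library of its stage. Mt1 stood at 6841, 8862 and 8573 CPM with vehicle and at 7304, 8075 and 8079 CPM with PLX5622, so that after injury the vehicle libraries were the higher ones, with log2 ratios of -0.13 and -0.09. No direction of ependymal Mt1 between diets can be given. The sham comparison, where few cells held the list in either diet, showed the largest Mt3 ratio.

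In sham cords the Mt3 difference between diets thus appeared in both of its main sources, with log2 ratios of 0.90 in astrocytes and 0.93 in ependymal cells. Mt1 had ratios of 0.55 and 0.18 there, and Mt2 of 0.13 and 0.23. The 2 sham libraries are 2 pools of mice, and the diet cannot be told apart from other differences between the pools.

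**Figure D5:**
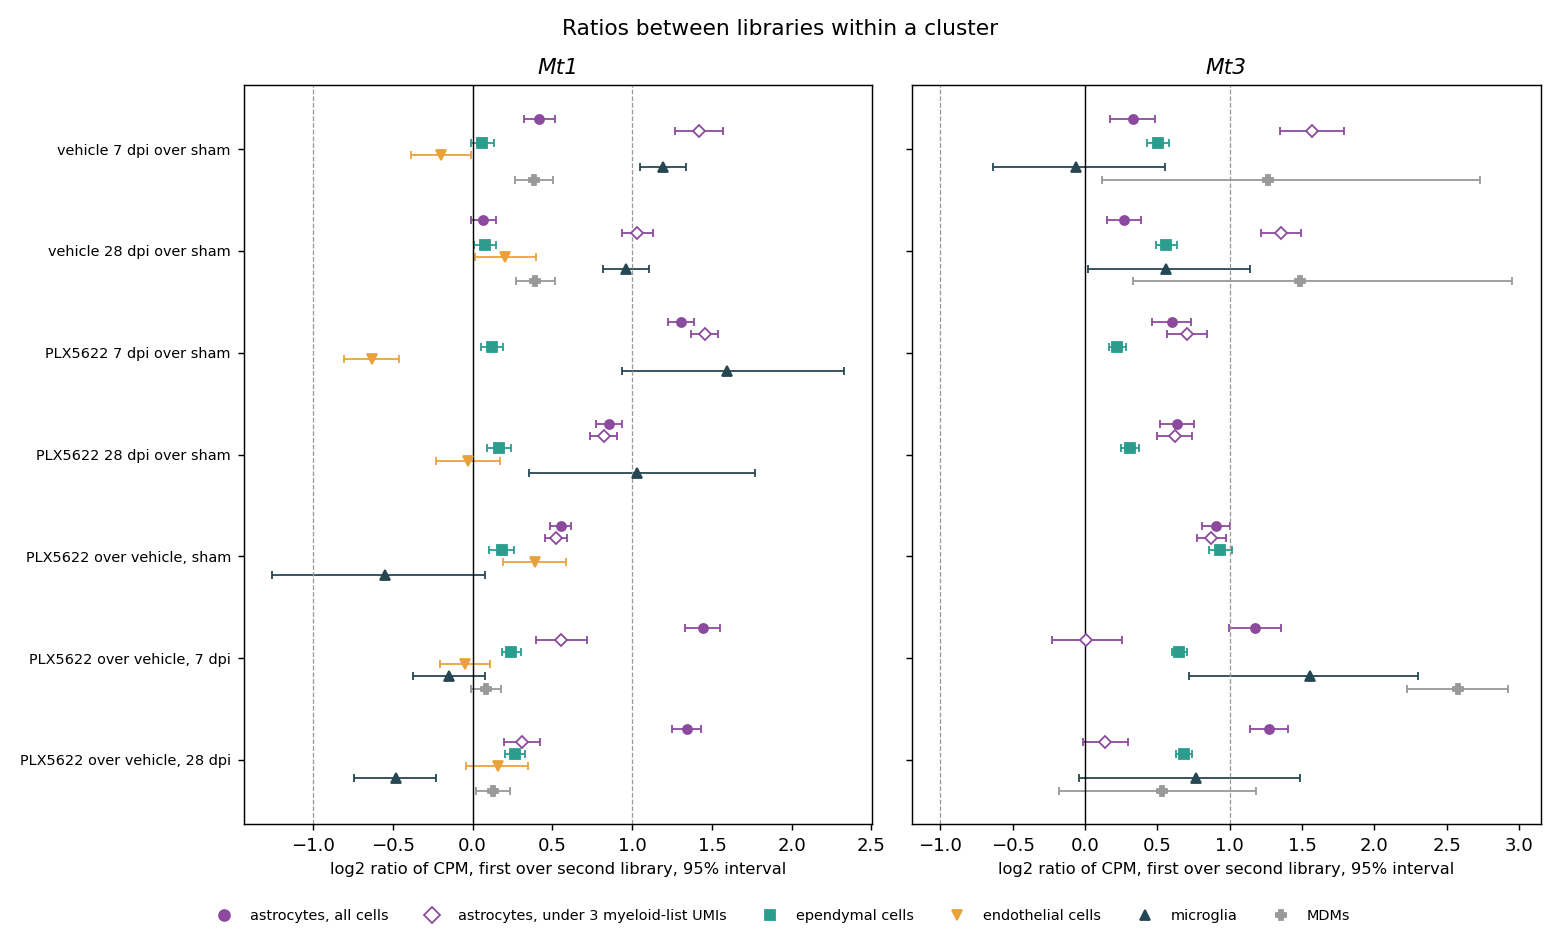
Log2 ratios of Mt1 and Mt3 between libraries for the 7 comparisons (rows) in 5 clusters, with exact 95% intervals of counting error; dashed lines mark 2-fold. In astrocytes the filled (all cells) and open (under 3 myeloid-list UMIs) symbols part most in the vehicle injury and the injured diet comparisons.

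Microglia, the resident macrophages of the cord, held Mt1 at a low level that was higher after injury. Mt1 stood at 217.1, 496.5 and 422.3 CPM with vehicle and at 148.3, 448.7 and 302.5 CPM in the 29, 61 and 126 microglia left with PLX5622. Both diets thus had the sham library lowest and the 7 dpi library highest. With vehicle the 7 dpi library had a log2 ratio to sham of 1.19 (1.05 to 1.34), and the 28 dpi library of 0.96 (0.82 to 1.10). At 7 dpi 2 of 3 members were called, Mt1 and Mt2 (1.08 on 129 and 19 UMIs), against a background of 4.02%, and at 28 dpi 0 of 3 against 3.62%. The median of all genes in these comparisons was -0.54 and -0.44, and relative to it Mt1 was 1.74 and 1.40 higher.

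With PLX5622, microglial Mt1 had a log2 ratio to sham of 1.60 (0.94 to 2.33) at 7 dpi, and the 28 dpi library one of 1.03 (0.36 to 1.77). Mt1 was the 1 member with enough UMIs and was called in both, against backgrounds of 6.99% and 11.6%, and the sham value rests on 21 UMIs. Between diets Mt1 had log2 ratios of -0.15 at 7 dpi, with an interval of -0.38 to 0.08, and of -0.48 (-0.75 to -0.23) at 28 dpi. After thinning, 17.52%, 36.69% and 31.62% of vehicle microglia held an Mt1 UMI, and without thinning 35.61%, 65.88% and 46.4%. B cells of the same libraries held one after thinning in 0 of 23, 19.86% and 21.25% of cells, below microglia at each stage. The B cell share was thus higher after injury by about as much as the microglial share, and Mt1 in B, T and neutrophil clusters of the vehicle libraries was also higher than in sham in CPM. Neutrophils held it at 14.34, 177.5 and 228.8 CPM. After thinning, the mean Mt1 count of vehicle T cells was 0.1148, 0.1157 and 0.195, so at 7 dpi it was level with sham. In microglia the means were 0.2226, 0.503 and 0.4175, and in neutrophils 0.01724, 0.184 and 0.155. The part of free RNA in the microglial difference was not tested.

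MDMs, the macrophages that enter from blood, held Mt1 at 425.9, 556.6 and 559.6 CPM with vehicle and at 589.8 and 612.3 CPM with PLX5622 at 7 and 28 dpi. Their log2 ratio over sham was 0.39 at both times, and PLX5622 over vehicle gave 0.08 and 0.13. Mt1 in MDMs thus varied little between these libraries. Mt3 in MDMs was 60.69 CPM with PLX5622 at 7 dpi (106 UMIs in 100 cells) against 10.16 CPM with vehicle, a log2 ratio of 2.58 (2.23 to 2.92). After thinning, 4.04% of 99 cells and 1.197% of 3008 cells held an Mt3 UMI. In B cells of these libraries the shares were 4.545% of 22 and 1.37% of 146 cells. Of 23 T cells of the PLX5622 library 0 held one, and its 12 neutrophils averaged 0.08333 UMIs. The PLX5622 references thus rest on few cells. The astrocyte list stood at 47.53 CPM in these MDMs against 35.17 CPM with vehicle. At median depths of 15945 and 5777 UMIs, 5% and 0.43% of cells held 3 or more of its UMIs. Mt3 per astrocyte-list UMI was 1.277 in these MDMs, 0.1711 in the astrocytes and 5.127 in the ependymal cells of the PLX5622 library. The source of this Mt3 was not tested.

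Endothelial cells, the lining of the vessels, held Mt1 at 954.4, 832.1 and 1099 CPM with vehicle and at 1249, 805.4 and 1226 CPM with PLX5622, so the 7 dpi library was the lowest in both diets. The log2 ratio of 7 dpi over sham was -0.20 (-0.38 to -0.01) with vehicle and -0.63 (-0.81 to -0.46) with PLX5622. The vehicle ratio was 0.001 in cells with under 3 myeloid UMIs. Mt2 ran from 155.8 to 335.5 CPM. Mt3 was 206.4 CPM with PLX5622 at 28 dpi and at most 29.12 CPM elsewhere, and of those 48 UMIs 23 lay in 1 cell and 75% in the 5 deepest.

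In the oligodendrocyte lineage Mt3 stood at 551.1, 372.2 and 494.8 CPM with vehicle and at 1089 and 886.9 CPM with PLX5622 at 7 and 28 dpi. Mt1 stood at 1025, 353.9 and 247.4 CPM with vehicle, with log2 ratios over sham of -1.53 and -2.05. The sham value comes from 22 cells whose astrocyte list was at 4230 CPM, against 707.8 and 1066 CPM in the injured libraries. Without cells holding 3 or more UMIs of that list the ratios were 0.84 and 0.78, with 7 sham cells left. No direction of Mt1 can be given for this cluster. Between diets the log2 ratio of Mt3 at 7 dpi was 1.55, from 160 and 122 UMIs, and that at 28 dpi 0.84, from 108 and 52 UMIs, with 3 or more astrocyte-list UMIs in 39.25% and 38.18% of vehicle cells and 53.57% and 71.79% of PLX5622 cells. The part of astrocyte RNA in that difference was not tested.

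Among the clusters of few cells, leptomeningeal cells held Mt1 at 1118 and 1792 CPM with vehicle (sham and 28 dpi) and at 2044 and 1733 CPM with PLX5622 (sham and 7 dpi). Pericytes or fibroblasts held it at 614.1, 336.1 and 563.3 CPM with vehicle and at 610, 378.6 and 801.3 CPM with PLX5622, so that 7 dpi was the lowest of each diet, on 14 and 24 UMIs. Monocytes held it at 250.2, 412.6 and 451.7 CPM with vehicle and at 175.5, 407 and 115.5 CPM with PLX5622, where the PLX5622 28 dpi library was below sham, on 36 and 14 UMIs.

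In B cells and in T cells the 2 highest values of Mt1 came in the 2 libraries with the most myeloid RNA. In B cells Mt1 stood at 27.3, 406.5 and 280.4 CPM with vehicle and at 15.54, 57.94 and 105.2 CPM with PLX5622. The myeloid list in the same cells summed to 4955, 21599 and 22473 CPM with vehicle and 1088, 11315 and 2073 CPM with PLX5622. T cells had Mt1 at 75.59, 326.9 and 235.5 CPM with vehicle and at 9.824, 51.33 and 81.45 CPM with PLX5622, and a myeloid list of 5083, 22478 and 19909 CPM with vehicle. Whether the Mt1 of these cells was their own was not tested.

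Genes that work beside the metallothioneins were counted from lists of metal handling, hormone, oxidant and cytokine response. In astrocytes few had enough UMIs. The gene of the zinc importer Slc39a12, the 1 of 21 zinc genes with enough UMIs in each injury comparison, had log2 ratios over sham of -1.63 and -0.56 with vehicle and -0.34 and 0.50 with PLX5622. Of 10 genes of the Stat3 and interleukin-6 list 1 had enough UMIs, the intermediate filament gene Gfap, which was called higher in all 4 injury comparisons with ratios of 3.73 and 1.49 with vehicle and 4.34 and 3.48 with PLX5622. The receptor gene Lrp1, whose protein binds metallothioneins outside the cell, had ratios of 0.49 and 0.18 with vehicle and 0.53 and 0.65 with PLX5622. These values include the cells with myeloid RNA, and the astrocyte list itself was lower in the injured vehicle libraries, as given above.

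Of the glucocorticoid response list, Tsc22d3 and Klf9, induced by the hormone through its receptor, had enough UMIs in astrocytes at 7 dpi in both diets. Their log2 ratios over sham were -1.61 and -0.80 with vehicle and -0.61 and -0.04 with PLX5622. The median of the list was -1.57 over 4 genes with vehicle and -0.33 over 2 genes with PLX5622, beside medians of all genes of -0.44 and -0.03. Among targets of the oxidant sensor Nrf2, the peroxidase gene Prdx1 had ratios of 0.79 with vehicle and 0.62 with PLX5622.

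In vehicle microglia at 7 dpi the lists could be read more fully. Of 12 zinc genes with enough UMIs 0 were called higher and 5 lower, with a median log2 ratio of -0.93. The lowest were the zinc transporter gene Slc30a5 (-1.50) and the gene of the zinc sensor, Mtf1 (-1.40), and the highest the importer genes Slc39a9 (0.08) and Slc39a1 (-0.26). Of 8 copper genes 2 were called higher, the copper chaperone gene Atox1 (1.86) and Sod1, a copper-zinc superoxide dismutase (1.74), and 0 lower, with a median of 0.40, and the lowest were Slc31a2 (-0.98) and Atp7a (-0.83). Over all 6623 genes 4.02% were called higher and 21.5% lower. Of 8 Nrf2 targets 1 was called higher (Prdx1, 1.45) and 1 lower (Gclc, -1.07). Of 4 glucocorticoid response genes 3 were called lower, with Tsc22d3 at -2.38, and of 4 genes of the Stat3 list 3, Cebpd, Socs3 and Il6st. Of 9 genes from the list of dissociation and immediate early genes 8 were called lower, with Jun (-2.54) and Dusp1 (-2.34) lowest and a median of -1.98.

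In ependymal cells the endocytic receptor genes Lrp1 and Lrp2 both had enough UMIs in the vehicle comparisons. At 7 dpi over sham Lrp1 had a log2 ratio of 1.01 (0.43 to 1.64) and Lrp2 of -0.20 (-0.63 to 0.25). At 28 dpi the ratios were 0.67 and -0.45. With PLX5622 at 7 dpi they were 0.15 and -0.33, both with intervals that span 0. The myeloid list in ependymal cells was 197.8, 7688 and 8651 CPM with vehicle and 480.3 and 2177 CPM with PLX5622 in sham and at 7 dpi, and its part in the Lrp1 ratio was not tested.

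The genes whose pattern was most like a member over the 78 units of cluster and library were all highest in ependymal cells or astrocytes. Likeness is the Pearson correlation of log2(CPM + 10) among 7206 genes with at least 1000 UMIs. Mt2 was the nearest gene to Mt1 of all (r = 0.915), followed by Chpt1 (0.862), Lxn (0.831), Prnp (0.811), Nrbp2 (0.81) and Srebf1 (0.802). Mt2 was nearest, after Mt1, to Prnp (0.91), Nrbp2 (0.892), Tmem47 (0.891), Sema6d (0.889) and Gja1 (0.887). Mt3 stood apart from its neighbours on the chromosome, with Ntrk2 (0.936), Pou3f2 (0.921), Sox2 (0.916), Dner (0.907) and Kif21a (0.906) nearest. Its correlation with Mt2 was 0.78 and with Mt1 0.683, in places 69 and 172 of its order. The units share libraries and their depth.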

How the data were processed

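Spinal cord cells were measured as 6 droplet single-cell libraries of 3' ends, 1 pool of mice per condition, and the 14 bulk samples of the series were not analysed here. Per the labels and the study's methods, the authors aligned reads to the mouse genome (mm10) and counted UMIs in Cell Ranger, then used Seurat to remove poor cells and form clusters. Deposited values are raw UMI counts per gene and cell, with no normalization, beside the authors' cluster number of each cell. The stated filter removes cells with over 3000 genes, but 716 cells of the table exceed it, and the table was used as deposited.

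Counts were summed per cluster and library and divided by the UMI total (CPM) with Python 3.11.15, numpy 2.4.6, pandas 2.3.3, scipy 1.17.1, scanpy 1.11.5 (doublet calls) and matplotlib 3.10.9. Totals per library ran from 2606149 to 35694246 UMIs. A library at 0 was set at a floor of 3 counts. With 1 library per condition nothing was tested, and intervals cover counting error only. Genes with at least 100 UMIs in 2 libraries formed the background of a comparison, and at least 2-fold was called. Clusters were named from fixed markers. The named genes are the members, the 5 nearest to each by correlation and, in a list, the 2 highest and 2 lowest ratios or fewer, with those called or tested in both diets. Members and lists were chosen with earlier results of these data known. The ratios were tested on simulated data. Alternatives were TMM factors (edgeR 4.0.16), DESeq2 1.42.0 size factors, totals without ribosomal protein genes, equal weight per cell and thinning. Further ones left out doublets, cells with under 500 genes, or cells with 3 or more UMIs of another type's list. After seeing the data, scaling by astrocyte genes, leaving out the richest cell, and thinning of the kept astrocytes were added. Sequences were read from GRCm38 with GENCODE M21 models and from RefSeq promoters with biopython 1.88.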

Additional observations from a re-analysis of the deposited data

Results flagged for a closer look

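Barcodes that passed the per-library matrices but not the count table held metallothionein UMIs. In vehicle sham cords 121 such barcodes, with at most 199 genes each, held Mt1 at 165.9 CPM (85.74 to 289.9). In PLX5622 sham cords 102 barcodes held Mt1 at 248.8 CPM (142.2 to 404) and Mt3 at 155.5 CPM (74.56 to 285.9). With PLX5622 at 7 dpi 29 barcodes held Mt1 at 624.5 CPM (299.5 to 1149) and Mt3 at 499.6 CPM (215.7 to 984.5). They are given because each lies above the limit that a count of 0 allows in data that no comparison used. These Mt3 levels lie above the medians of every cluster except ependymal cells, astrocytes and the oligodendrocyte lineage.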

How the results depend on the processing

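No paired analysis was possible because each condition was 1 library and the results come from no test. Of 896 alternatives to 95 ratios, 23 reversed a ratio whose interval held only positive or only negative values. Of the other 873, 263 left the interval of the value reported. A change of sign was not counted as a reversal where the interval held both signs. All intervals cover counting error only, and differences between mice or pools were not measured. The cause of each shift was not tested. Log2 ratios are given throughout.

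For PLX5622 over vehicle at 7 dpi, astrocyte Mt1 (1.44) was 1.05 with TMM factors, 1.09 with DESeq2 factors, 1.31 without ribosomal protein genes, 0.78 with equal weight per cell, 0.25 thinned, 0.56 without cells holding myeloid RNA, -0.26 with both of these, 0.80 per astrocyte-list UMI and 1.21 without the richest cell. Mt2 (1.84) was 1.45 with TMM, 1.49 with DESeq2 factors, 1.19 with equal weight, 1.07 thinned, 0.90 without the myeloid cells, 0.36 with both and 1.199 per astrocyte-list UMI. Mt3 (1.17) was 0.78 with TMM, 0.82 with DESeq2 factors, 0.82 with equal weight, 0.38 thinned, 0.0094 without the myeloid cells, -0.12 with both, 0.53 per astrocyte-list UMI and 1.41 without the richest cell.

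At 28 dpi astrocyte Mt1 (1.34) was 0.87 with TMM, 0.95 with DESeq2 factors, 1.22 without ribosomal protein genes, 0.80 with equal weight, 0.90 thinned, 0.92 without doublets, 0.31 without the myeloid cells, 0.088 with both and 0.31 per astrocyte-list UMI. Mt2 (1.78) was 1.31 with TMM, 1.39 with DESeq2 factors, 1.31 with equal weight, 1.55 thinned, 1.42 without doublets, 0.67 without the myeloid cells, 0.99 with both and 0.75 per astrocyte-list UMI. Mt3 (1.27) was 0.80 with TMM, 0.88 with DESeq2 factors, 0.72 with equal weight, 0.95 thinned, 0.81 without doublets, 0.14 without the myeloid cells, 0.12 with both and 0.24 per astrocyte-list UMI.

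For PLX5622 at 7 dpi over sham, astrocyte Mt1 (1.31) was 1.40 with equal weight, 0.72 thinned, 1.45 without the myeloid cells, 0.85 with both and 1.00 without the richest cell, and Mt2 (1.67) was 1.44 thinned, 1.34 with both and 1.44 without the richest cell. Microglial Mt1 in vehicle at 7 dpi over sham (1.19) was 1.74 with TMM, 1.78 with DESeq2 factors and 1.37 without ribosomal protein genes. Ependymal Mt3 between diets in sham cords (0.93) was 0.57 with equal weight, 0.77 thinned and 0.85 without the myeloid cells.

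The other reversals were of small or thinly counted ratios, except in the oligodendrocyte lineage. In ependymal cells between diets, Mt1 became -0.10 and Mt2 -0.093 in sham cords with equal weight. At 7 dpi Mt1 became -0.033 thinned, -0.011 without doublets and -0.13 without the myeloid cells, and Mt2 -0.10 without doublets and -0.14 without the myeloid cells. At 28 dpi Mt1 became -0.084 with equal weight, -0.045 thinned and -0.086 without the myeloid cells. In endothelial cells Mt1 in vehicle at 7 dpi over sham became 0.25 with equal weight, 0.081 thinned and 0.001 without the myeloid cells, and between diets at 7 dpi Mt2 became -0.20 and Mt3 -0.39 without them. In the oligodendrocyte lineage Mt1 with vehicle over sham was past 2-fold lower at both times. It became 0.84 at 7 dpi and 0.78 at 28 dpi without cells holding astrocyte RNA, with 7 sham cells left. Between diets at 28 dpi microglial Mt1 became 0.021 with equal weight and Mt2 -0.17 thinned, and in MDMs Mt1 became -0.038 and Mt2 -1.19 thinned.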
